A study of Mus musculus with 10 samples.

Results

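The circadian clock genes examined were Bmal1 (also named Arntl), Clock, Per1, Per2, Per3, Cry1, Cry2, Nr1d1, Nr1d2 and Dbp, chosen by gene symbol. All 10 were found among the 55401 genes of the count table, and all 10 were among the 17464 genes with enough counts to test. RNA had been sequenced from 10 subcutaneous KPN1.1 tumors, a mouse lung adenocarcinoma line that carries loss of Trp53 and the NINJA neoantigen cassette. The tumors grew in the flanks of male C57BL/6J mice made obese by a diet with 60% of its calories from fat and 7 to 17 weeks old at injection of the cells. Once tumors could be felt, 5 mice received liraglutide, an agonist of the glucagon-like peptide 1 receptor, at 0.2 µg per g body weight a day, and 5 received the phosphate-buffered saline vehicle. Mice were killed 19 to 22 days after injection, and the labels give a tumor volume of 2000 mm3 or the end of the study as the point of harvest. All tumors came from 1 cell line, so they share its alleles, and the labels do not give the hour of day of any harvest.

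The circadian clock is a feedback loop that runs in most cells with a period of about a day. BMAL1 and CLOCK bind E-boxes and switch on the Per and Cry genes, whose proteins then inhibit BMAL1 and CLOCK. In a second loop the same pair drives Nr1d1 and Nr1d2, which encode the repressors REV-ERBα and REV-ERBβ, and these shut down Bmal1, so that Bmal1 transcript peaks when Nr1d1, Dbp and Per3 are near their low point. Tumors collected at different hours may therefore differ with one side of this loop high and the other low, and the questions addressed were whether any member differed between treatments and whether the 2 sides moved in opposite directions between tumors.

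Total counts per tumor lay between 9927942 and 14480593, and 3 counts, the floor used here, corresponded to 0.207 to 0.302 CPM, the unit that scales counts to a common library size. CPM were further scaled by the trimmed mean of M values (TMM). Floors cover counting error alone. Of the lung and epithelial markers, Cdh1, Krt8, Krt18 and Krt19 were abundant in every tumor, at 560 to 3294 CPM, and Nkx2-1, the transcription factor of lung epithelium, lay between 17.7 and 132 CPM. Epcam, at 0.163 to 4.63 CPM, Napsa, at 0.42 to 2.55 CPM, and Sftpc, at 0 to 5.96 CPM, were low. Summed leukocyte markers lay between 85.7 and 166 CPM in vehicle tumors and 99.4 and 200 CPM in liraglutide tumors. The matching ranges were 42.1 to 265 and 101 to 373 CPM for skeletal muscle, and 11.5 to 21.0 and 11.0 to 219 CPM for keratinocytes. In bulk tumor RNA, fewer cells of a type and less RNA per cell cannot be told apart. Vehicle tumor 5 stood apart from the other tumors in Bmal1 and in the summed level of glucocorticoid-responsive genes, so values without it are given beside the fold changes whose sign turns, the relations with Bmal1, the pair signs and the list counts.

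Per kilobase of exon, the REV-ERB genes and Clock were the most abundant members and Cry1, Bmal1 and Dbp the least. Mean levels in vehicle tumors, in CPM per kilobase, were 15.4 for Nr1d1, 13.9 for Nr1d2, 11.8 for Clock, 7.39 for Per1, 3.62 for Per3, 2.82 for Cry2, 2.81 for Per2, 2.31 for Dbp, 2.23 for Bmal1 and 1.76 for Cry1. The same scale gave 13.5, 12.2, 10.5, 6.002, 3.45, 3.12, 3.69, 2.07, 2.08 and 1.58 in liraglutide tumors, in the same order of genes. Clock lay above Per1 without overlap, with its lowest tumor at 9.31 and the highest of Per1 at 8.90, and Per1 was higher than Per3 in each of the 10 tumors. The other neighbors in this order overlapped among tumors and changed places in some of them. Lengths were those of GENCODE M39 gene models, so these levels depend on which exons the models include.

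Bmal1, the partner of CLOCK and the member whose loss stops the clock, was measured at 19.4, 23.7, 18.2, 24.3 and 43.5 CPM in vehicle tumors 1 to 5 and at 19.96, 23.3, 21.2, 28.6 and 27.5 CPM in liraglutide tumors 1 to 5. Vehicle tumor 5 alone lay far above the rest. Among the other 9 tumors the groups overlapped in part, with liraglutide tumors 4 and 5 above vehicle tumors 1 to 4, and vehicle tumors 1 and 3 below all liraglutide tumors. The means were 25.8 ± 10.2 CPM (SD, n = 5) in vehicle and 24.1 ± 3.82 CPM (SD, n = 5) in liraglutide tumors. The log2 fold change of liraglutide over vehicle was −0.10 (SE 0.23, 95% interval −0.60 to 0.40, adjusted p = 0.897 in the quasi-likelihood test of edgeR). Without vehicle tumor 5 it was 0.18 (adjusted p = 0.577 in the same edgeR test), so the direction of this difference rested on that tumor. Bmal1 (ENSMUSG00000055116.8) lies on chr7:112806152-112914735, plus strand, in GENCODE M39 on GRCm39.

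Clock, which encodes the DNA-binding partner of BMAL1, was the steadiest member. Its levels were 176, 218, 189, 210 and 224 CPM in the vehicle tumors and 169, 201, 202, 175 and 161 CPM in the liraglutide tumors. The highest tumor was 1.39 times the lowest, and 10.6% of all tested genes varied less within groups on the log2 scale. Means were 203 ± 20 CPM and 182 ± 19.2 CPM (SD, n = 5 each), with a log2 fold change of −0.16 (SE 0.10, 95% interval −0.39 to 0.07, adjusted p = 0.618, edgeR). The Clock gene (ENSMUSG00000029238.11; chr5:76342860-76452846, minus strand, GRCm39) shares 2047 exon bases with Tmem165 on the opposite strand. Tmem165 itself was at 70.0 ± 8.44 CPM in vehicle and 69.1 ± 5.31 CPM in liraglutide tumors (SD, n = 5 each).

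The period genes, whose proteins inhibit BMAL1 and CLOCK, differed in which tumors were high and low. Per1 (ENSMUSG00000020893.17; chr11:68986035-69002300, plus strand) also responds to glucocorticoids and acute signals. It was at 51.2, 68.1, 59.7, 39.2 and 64.8 CPM in vehicle tumors and at 51.9, 41.7, 55.3, 34.3 and 46.7 CPM in liraglutide tumors. The lowest vehicle tumor lay below 4 of the 5 liraglutide tumors, so the groups overlapped. Its log2 fold change, −0.30 (SE 0.17, 95% interval −0.68 to 0.08), had the smallest p of the members, at an adjusted p of 0.588 (edgeR).

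Per2 (ENSMUSG00000055866.9; chr1:91343700-91387069, minus strand) varied most. It was at 12.5, 10.8, 18.3, 30.7 and 19.9 CPM in vehicle tumors and at 28.2, 12.2, 36.2, 17.7 and 26.9 CPM in liraglutide tumors. Low and high tumors were found in both groups, and the highest was 3.37 times the lowest. The log2 fold change was 0.40 (SE 0.33, 95% interval −0.33 to 1.12, adjusted p = 0.696, edgeR), the largest upward value of the 10, with an interval that takes in both directions. Leaving out single tumors gave 0.21 (liraglutide tumor 3) to 0.67 (vehicle tumor 4).

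Per3 (ENSMUSG00000028957.12; chr4:151081373-151129140, minus strand), the period gene that is least needed for rhythm, was at 50.7, 39.7, 39.7, 35.9 and 23.6 CPM in vehicle tumors. It was at 47.0, 40.2, 30.9, 26.1 and 36.6 CPM in liraglutide tumors. The lowest value was that of vehicle tumor 5, the tumor with the highest Bmal1, and the next lowest that of liraglutide tumor 4, the tumor with the next highest Bmal1. The treatment difference was a log2 fold change of −0.07 (SE 0.21, 95% interval −0.52 to 0.38, adjusted p = 0.922, edgeR). It was −0.19 without vehicle tumor 5, 0.06 without vehicle tumor 1 and 0.03 without liraglutide tumor 4, so its sign rested on single tumors.

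Of the cryptochrome genes, which encode the partners of the PER proteins in repression, Cry1 (ENSMUSG00000020038.10; chr10:84967560-85021252, minus strand) was the member with the lowest level per kilobase. Its values were 8.91, 9.22, 8.29, 7.03 and 10.3 CPM in vehicle tumors and 10.8, 5.96, 6.75, 9.92 and 5.88 CPM in liraglutide tumors. The vehicle tumors lay inside the range of the liraglutide tumors, of which 2 were high and 3 low. The log2 fold change was −0.16 (SE 0.21, adjusted p = 0.808, edgeR), and −0.30 (without liraglutide tumor 1) to −0.07 (without liraglutide tumor 5) over single tumors left out. Cry2 (ENSMUSG00000068742.11; chr2:92233894-92264474, minus strand) was at 23.8, 21.2, 28.03, 26.02 and 22.2 CPM in vehicle tumors and at 37.4, 20, 29.6, 20.8 and 26.2 CPM in liraglutide tumors. Liraglutide tumor 1 was the highest of all 10 for both cryptochromes. For Cry2 the log2 fold change was 0.14 (SE 0.17, adjusted p = 0.787, edgeR), and without liraglutide tumor 1 it was −0.01, so its sign rested on that tumor.

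Nr1d1 (ENSMUSG00000020889.11; chr11:98658752-98666188, minus strand), which encodes the repressor REV-ERBα, was at 62.7, 66.8, 48.1, 38.9 and 33.3 CPM in vehicle tumors. In liraglutide tumors it was at 47.9, 57.3, 48.1, 29 and 36.2 CPM. In both groups tumors 4 and 5 were the lowest, although tumors of the same number came from different mice. The log2 fold change was −0.19 (SE 0.23, 95% interval −0.69 to 0.31, adjusted p = 0.782, edgeR), and leaving out single tumors gave −0.30 (vehicle tumor 5) to −0.07 (vehicle tumor 2). Nr1d1 shares 1694 exon bases with Thra, the thyroid hormone receptor gene on the opposite strand, and without a stated strand setting reads in the overlap cannot be assigned with certainty. Thra differed between treatments by a log2 fold change of −0.00 (SE 0.16), and its highest tumor was 1.57 times its lowest, against 2.30 times for Nr1d1.

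Nr1d2 (ENSMUSG00000021775.11; chr14:4230545-4266624, plus strand), which encodes REV-ERBβ, was at 123, 126, 132.5, 152.5 and 92.3 CPM in vehicle tumors and at 142, 105, 114, 85.9 and 106 CPM in liraglutide tumors. Its lowest tumors were liraglutide tumor 4 and vehicle tumor 5. The log2 fold change was −0.18 (SE 0.15, 95% interval −0.52 to 0.16, adjusted p = 0.698, edgeR), and single tumors left out gave −0.29 (liraglutide tumor 1) to −0.09 (vehicle tumor 4). Dbp (ENSMUSG00000059824.12; chr7:45354512-45359627, plus strand), which encodes a PAR bZIP activator that binds D-boxes, was at 11.4, 6.79, 7.35, 8.45 and 6.11 CPM in vehicle tumors. In liraglutide tumors it was at 7.86, 6.37, 8.49, 4.63 and 8.63 CPM. These levels rest on 49 to 165 counts a tumor, where Cry1 rests on 73 to 129 and the other members on at least 106, and its lowest tumor was again liraglutide tumor 4. The log2 fold change was −0.16 (SE 0.22, 95% interval −0.65 to 0.34, adjusted p = 0.821, edgeR), and without vehicle tumor 1 it was 0.01 and without liraglutide tumor 4 −0.03. Dbp shares 539 exon bases with Sphk2 on the opposite strand, which was at 21.2 ± 7.02 CPM in vehicle and 25.5 ± 4.95 CPM in liraglutide tumors (SD, n = 5 each).

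**Figure D1:**
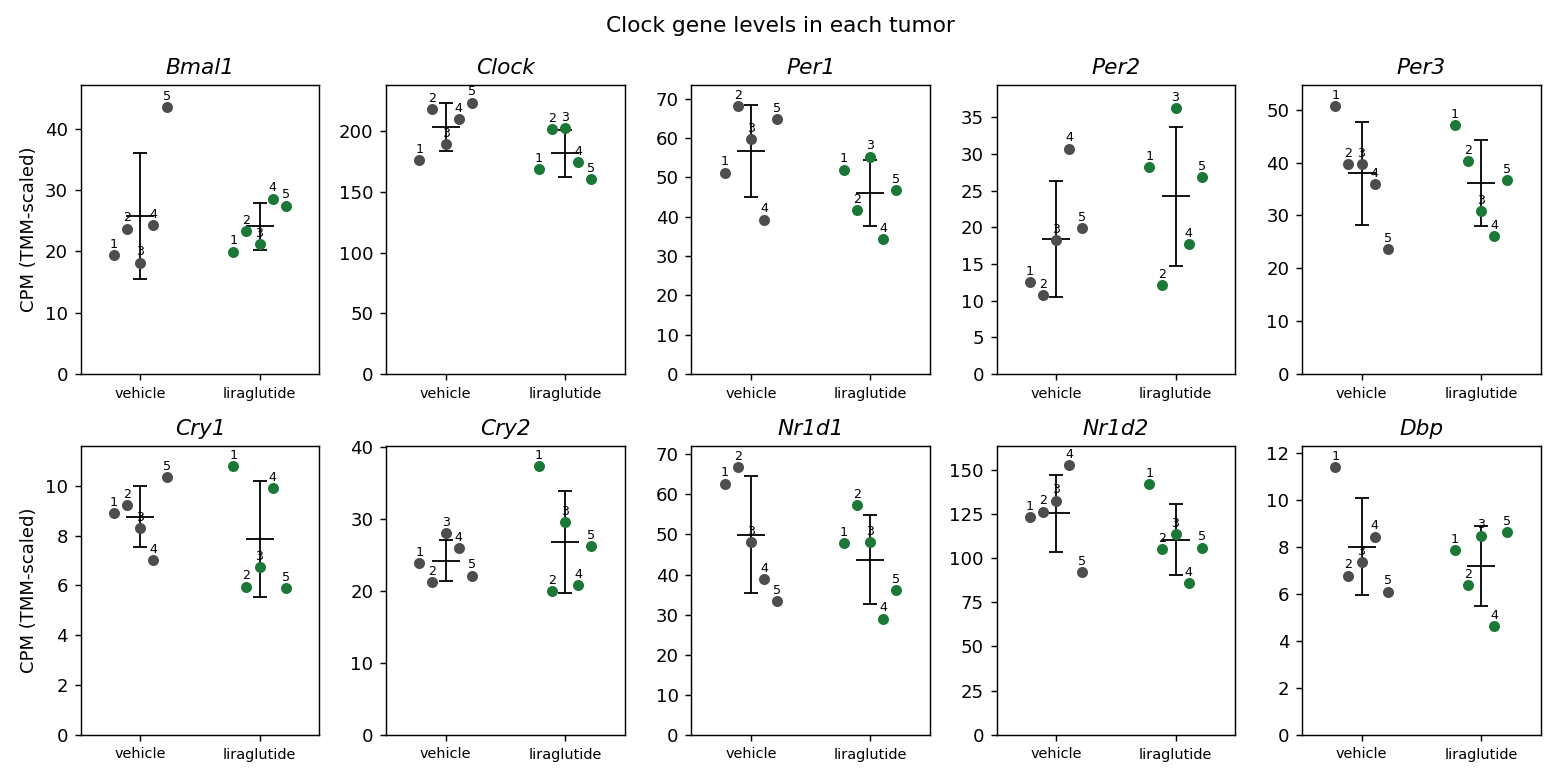
Levels of the 10 clock genes in each tumor, in TMM-scaled CPM from 0 (vertical axis), for vehicle (grey) and liraglutide (green) tumors. Numbers are tumor numbers, horizontal marks are means and bars are 1 SD (n = 5 each); vehicle and liraglutide points overlap in all 10 genes, and vehicle tumor 5 stands alone in Bmal1 at 43.5 CPM.

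None of the 10 members passed an adjusted p of 0.05 in the edgeR test, where 0% of all 17464 genes did. At an unadjusted p under 0.05 there were also 0 of 10, against 9.59% of all tested genes, and in 0 of 10 did the treatment groups not overlap, against 1.49% of all tested genes. With limma-voom 0 of 10 members passed the adjusted threshold (adjusted p of at least 0.588), where 0 of all tested genes did. DESeq2 with its default filter gave an adjusted p for 2 members only, Clock at 0.49 and Nr1d2 at 0.632, and none for the other 8. In that fit 102 of all tested genes passed. Without that filter, a fit added after the data were seen, DESeq2 gave adjusted p between 0.618 and 0.947 for all 10 members. There 40 of all tested genes passed. Point estimates were lower in liraglutide tumors for 8 members and higher for 2, with a median log2 fold change of −0.158, beside a median of −0.0168 over all tested genes. With vehicle tumor 5 left out, 7 were lower and 3 higher. By the two-sided exact permutation test on log2 CPM, the p of the 10 members lay between 0.119 for Clock and 0.905 for Bmal1, where 5 against 5 allow a smallest p of 0.00794. The edgeR intervals were widest for Per2, at −0.33 to 1.12, and narrowest for Clock, at −0.39 to 0.07.

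**Figure D2:**
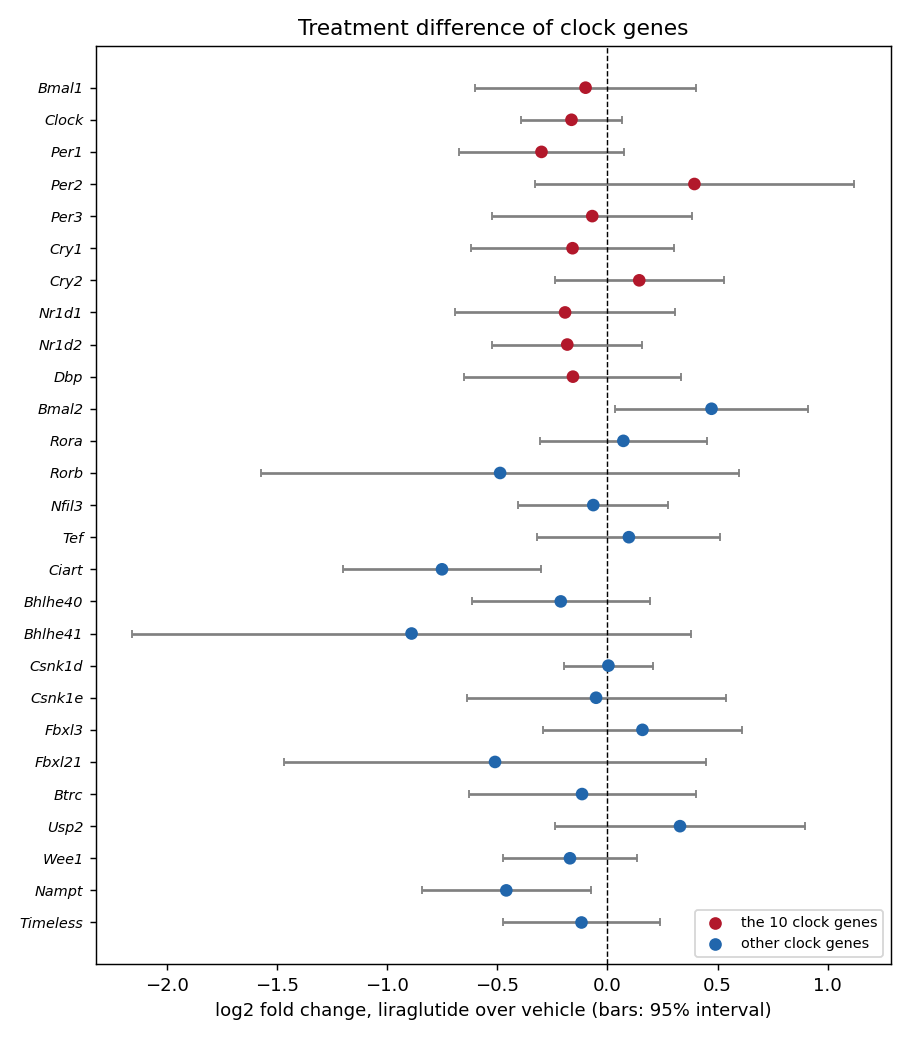
Log2 fold change of liraglutide over vehicle (horizontal axis) with the 95% interval of edgeR for the 10 clock genes (red) and the other clock genes shown (blue). All 10 intervals of the first group cross 0; those of Bmal2, Ciart and Nampt do not, before adjustment.

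Levels were next compared between tumors. Bmal1 was set against each of the other 9 members over the 10 tumors, by Pearson r of log2 CPM with permutation p adjusted over the 9 relations. Per3 moved opposite to Bmal1 (r = −0.798, permutation p = 0.00382, adjusted p = 0.0344; Spearman rho = −0.721, permutation p = 0.0233, adjusted p = 0.194). Nr1d1 gave r = −0.647 (permutation p = 0.0354, adjusted p = 0.106; rho = −0.661, permutation p = 0.0431) and Nr1d2 gave r = −0.671 (permutation p = 0.0283, adjusted p = 0.106; rho = −0.576, permutation p = 0.0873). Dbp, at r = −0.517 (permutation p = 0.128, adjusted p = 0.288; rho = −0.467), and Cry2, at r = −0.471 (permutation p = 0.172, adjusted p = 0.309; rho = −0.479), were also negative. Past the adjusted threshold, then, stood Per3 alone, and by Pearson r only. Without vehicle tumor 5, r was −0.621 for Nr1d1 and −0.59 for Nr1d2 (adjusted permutation p = 0.217 each). It was −0.49 for Dbp and −0.472 for Cry2 (adjusted permutation p = 0.302 each), and 0 relations passed the adjusted threshold.

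Over all 10 tumors the remaining relations with Bmal1 were near 0 or weakly positive. Clock, at r = 0.336 (permutation p = 0.361, rho = 0.236), Cry1, at r = 0.169 (permutation p = 0.674, rho = 0.0788), Per2, at r = 0.0282 (permutation p = 0.944, rho = 0.0424), and Per1, at r = 0.00672 (permutation p = 0.986, rho = −0.224), had adjusted p between 0.542 and 0.986. Without vehicle tumor 5, r was −0.1 for Clock, −0.259 for Cry1, 0.0714 for Per2 and −0.589 for Per1 (permutation p = 0.0964, adjusted p = 0.217), so the values for Clock, Cry1 and Per1 rested on that tumor. Beside these values, 1.04% of all tested genes had a lower r with Bmal1 than Per3, 4.28% a lower r than Nr1d2, 5.31% than Nr1d1, 12% than Dbp and 15% than Cry2. Subtracting the treatment means left r at −0.807 for Per3, −0.743 for Nr1d2 and −0.681 for Nr1d1, so the treatment means did not carry these relations.

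The relation of Per3 with Bmal1 depended on which tumors were included. Without vehicle tumors 3 and 5, those farthest from the median Bmal1 level, r was −0.713 (adjusted permutation p = 0.231), and without vehicle tumor 5 alone it was −0.652 (adjusted permutation p = 0.217). The sign was negative without any single tumor, at r between −0.872 and −0.652. The adjusted p was also above 0.05 without vehicle tumor 1 (r = −0.782, permutation 0.0962), vehicle tumor 2 (r = −0.802, 0.0567), liraglutide tumor 1 (r = −0.783, 0.109), liraglutide tumor 2 (r = −0.803, 0.0584) and liraglutide tumor 4 (r = −0.812, 0.132). Without vehicle tumor 4, Nr1d2 joined Per3 below the threshold (r = −0.784, adjusted permutation p = 0.0419). Without vehicle tumors 3 and 5, Nr1d1 gave r = −0.708, Dbp r = −0.646 and Nr1d2 r = −0.583, so the negative sign of these relations did not come from that pair of tumors.

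**Figure D3:**
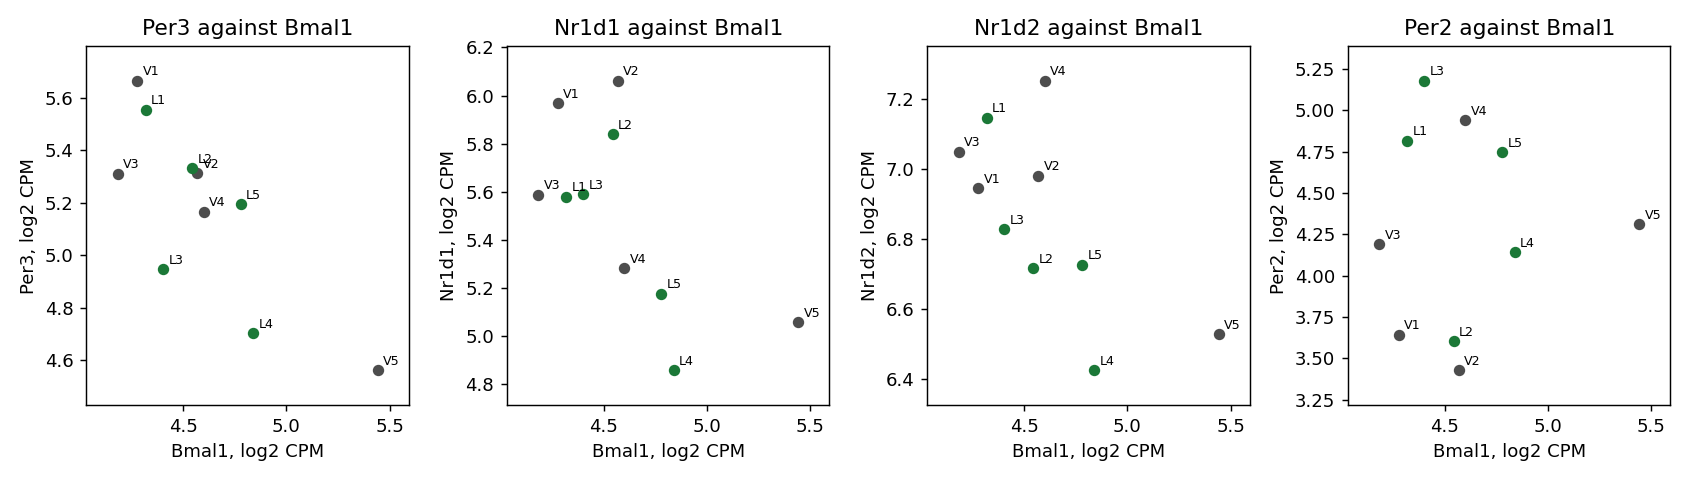
Log2 CPM of Per3, Nr1d1, Nr1d2 and Per2 (vertical axes) against log2 CPM of Bmal1 (horizontal axes) in vehicle (grey, V1 to V5) and liraglutide (green, L1 to L5) tumors. Per3, Nr1d1 and Nr1d2 fall towards V5 and L4 at the high end of Bmal1 (r = −0.798, −0.647 and −0.671), while Per2 shows no such fall (r = 0.0282).

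Vehicle tumor 5 and liraglutide tumor 4, which were the highest in Bmal1, were at or near the bottom for Per3, Nr1d1, Nr1d2 and Dbp. The difference of Nr1d1 from Bmal1 on the log2 CPM scale was 1.68, 1.49, 1.40, 0.68 and −0.38 in vehicle tumors and 1.25, 1.29, 1.18, 0.02 and 0.40 in liraglutide tumors. The difference of Per3 from Bmal1 was 1.38, 0.74, 1.12, 0.56 and −0.88 in vehicle tumors and 1.23, 0.78, 0.54, −0.13 and 0.41 in liraglutide tumors. In both measures vehicle tumor 5 was lowest and liraglutide tumor 4 next. Over all 6 genes of the output side (Per1, Per2, Per3, Nr1d1, Nr1d2 and Dbp), the mean log2 CPM minus that of Bmal1 and Clock was −0.63, −1.06, −0.72, −0.98 and −1.77 in vehicle tumors. In liraglutide tumors it was −0.56, −1.17, −0.79, −1.56 and −0.97. The group means, −1.03 ± 0.45 and −1.01 ± 0.38 (SD, n = 5 each), differed by 0.02, far less than the spread among tumors of either group, and by −0.16 without vehicle tumor 5 (liraglutide minus vehicle). Its sign also turned without liraglutide tumor 1 (−0.09) or liraglutide tumor 3 (−0.03).

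**Figure D4:**
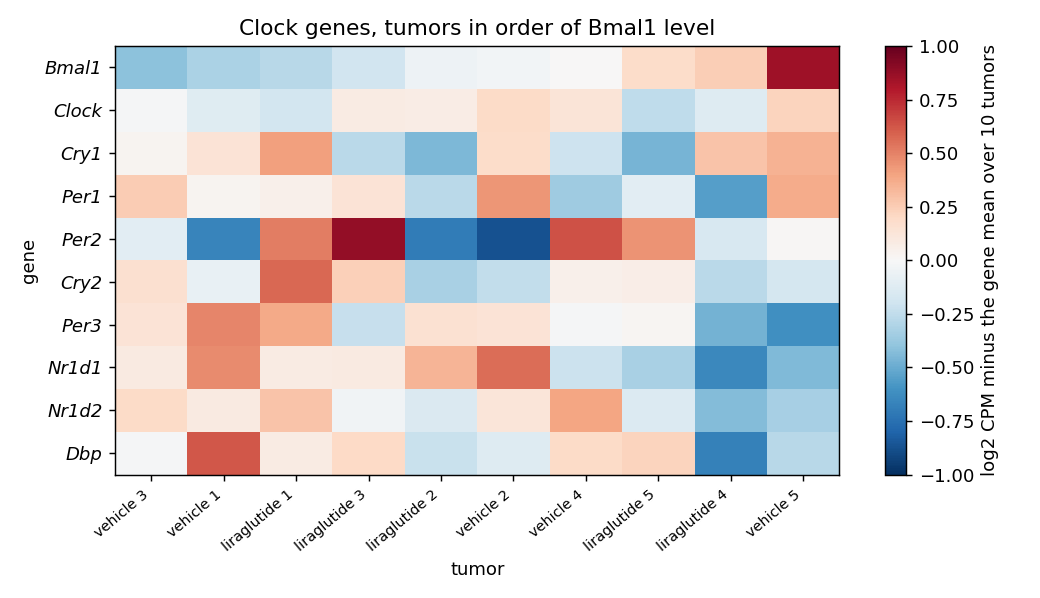
Log2 CPM of each member (rows) minus its mean over the 10 tumors (color scale, −1 to 1), with tumors (columns) in order of rising Bmal1. The 2 tumors at the right, liraglutide tumor 4 and vehicle tumor 5, are below the mean in Per3, Nr1d1, Nr1d2 and Dbp. Per2 follows no such order, and Per1 is lowest in liraglutide tumor 4 (34.3 CPM) but high in vehicle tumor 5 (64.8 CPM).

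Signs between the other members were mixed. Per3, Nr1d1, Nr1d2 and Dbp were positively correlated with one another in 6 of 6 pairs, with r between 0.486 for Nr1d1 with Dbp and 0.759 for Per3 with Nr1d1. All 4 were negative with Bmal1. They are the output genes with a negative r with Bmal1 and were not a planned set, so these counts are descriptions only. Cry2, not counted on the output side, had the same signs, at r = −0.471 with Bmal1. With these 4 genes its r lay between 0.0202 for Nr1d1 and 0.585 for Nr1d2. Clock was negative with 3 of the 6 output genes and positive with the other 3, with r between −0.37 for Per3 and 0.408 for Per1, and between −0.168 and 0.437 without vehicle tumor 5. Per1 had r = 0.00672 with Bmal1 over all tumors and −0.589 without vehicle tumor 5, and Per2 had r = 0.0282 and 0.0714. Per2 was negative with Nr1d1 (r = −0.507), a gene of its own side of the loop, while it was highest with Cry2 (r = 0.704). Over the 12 pairs of an activator with an output gene 7 were negative, over the 15 pairs within the output side 12 were positive, and over all 45 pairs of members 17 were negative. Without vehicle tumor 5 the counts were 8 of 12, 12 of 15 and 19 of 45, with Per3, Nr1d1, Nr1d2 and Dbp positive in 6 of 6 pairs and negative with Bmal1 in 4 of 4. Among all pairs of tested genes 50% were negative. These pairs share the same 10 tumors and are not independent, and they are given without p.

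**Figure D5:**
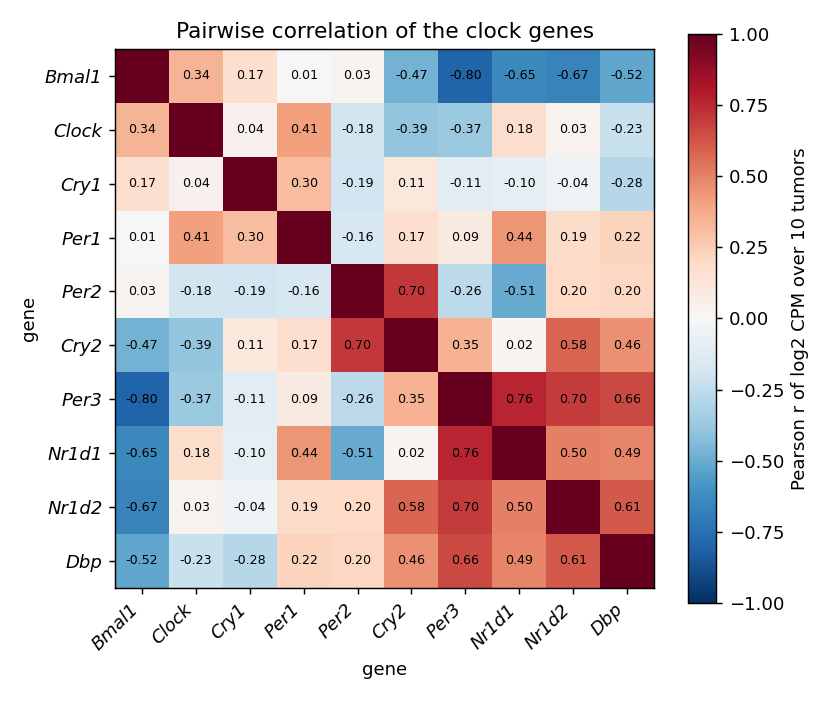
Pearson r of log2 CPM over the 10 tumors for each pair of the 10 clock genes (color scale, −1 to 1, with the value in each cell). The block of Per3, Nr1d1, Nr1d2 and Dbp at the lower right, not a planned set, is positive throughout and negative against Bmal1. Cry2 is also positive with all 4 of its genes and negative against Bmal1. Per1 is weakly positive with all 4, Cry1 weakly negative with all 4 and Per2 of either sign.

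Promoter sequence of the members was also examined. E-boxes (CACGTG) are bound by BMAL1 and CLOCK, and D-boxes (TTATGTAA) by DBP and its relatives. The receptor core GGGTCA or AGGTCA is bound by the REV-ERB receptors. Whether these motifs relate to the groups of genes above was not tested. The motifs were searched on both strands in windows from 250 bases before to 50 bases after each start in the RefSeq promoter table, on GRCm38.p6. An E-box was found in 7.15% of all 32851 windows, a D-box in 0.938% and a receptor core in 27.5%; the 3 motifs do not overlap one another in the stretches shown. Windows were found for 9 members. Per3, shown because it was the member most opposed to Bmal1 and chosen after its values were seen, held 2 D-boxes, 205 and 158 bases before its start. Per1 held an E-box and a receptor core in 1 of its 2 windows, and Nr1d1 and Dbp held none of the motifs in theirs. The 250 bases before the start are printed 5′ to 3′ on the strand of the gene with matches in capitals, and for Bmal1 a stretch of 30 bases after the start of its second window that holds a receptor core.
Per3 (chr4:151044666-151044915, minus strand): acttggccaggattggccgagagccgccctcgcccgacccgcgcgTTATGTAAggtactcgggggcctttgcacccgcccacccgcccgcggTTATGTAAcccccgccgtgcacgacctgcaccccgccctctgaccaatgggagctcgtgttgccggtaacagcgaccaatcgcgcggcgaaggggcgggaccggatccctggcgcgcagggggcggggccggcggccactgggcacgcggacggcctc
Per1 (chr11:69098699-69098948, plus strand): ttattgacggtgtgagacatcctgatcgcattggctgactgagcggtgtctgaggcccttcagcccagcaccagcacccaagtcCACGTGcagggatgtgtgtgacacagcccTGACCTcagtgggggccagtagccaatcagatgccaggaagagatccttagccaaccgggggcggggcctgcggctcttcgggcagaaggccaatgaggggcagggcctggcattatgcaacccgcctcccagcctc
Nr1d1 (chr11:98775378-98775627, minus strand): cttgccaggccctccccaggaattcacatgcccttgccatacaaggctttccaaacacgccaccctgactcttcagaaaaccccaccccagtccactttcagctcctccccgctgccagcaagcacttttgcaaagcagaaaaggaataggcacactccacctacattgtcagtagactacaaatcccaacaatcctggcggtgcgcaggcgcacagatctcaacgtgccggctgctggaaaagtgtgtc
Dbp (chr7:45704997-45705246, plus strand): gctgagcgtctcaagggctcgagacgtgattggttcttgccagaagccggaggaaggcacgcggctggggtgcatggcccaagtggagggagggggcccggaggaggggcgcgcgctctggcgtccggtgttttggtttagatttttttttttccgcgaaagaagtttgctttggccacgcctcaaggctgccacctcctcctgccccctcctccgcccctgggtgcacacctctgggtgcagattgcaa
Bmal1 (chr7:113207530-113207559, plus strand): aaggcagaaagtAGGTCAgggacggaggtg
Elsewhere, Cry1 held an E-box 60 bases before its start, Nr1d2 a receptor core 77 bases before its start and 1 of 3 Clock windows a receptor core 119 bases before its start, while Cry2 held none. A match shows that these letters are present in the window, not that a protein binds there.

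Other features of the tumors moved with these values. The first principal component of all tested genes correlated with Per2 (r = 0.824, permutation p = 0.00549, adjusted p = 0.034 over the 10 members; rho = 0.77) and with Nr1d1 (r = −0.809, permutation p = 0.00681, adjusted p = 0.034; rho = −0.624). Without vehicle tumors 1 and 2, the farthest from the median on that component, r was 0.666 and −0.612. For Bmal1 it was 0.512 (permutation p = 0.125) and for Per3 −0.679 (permutation p = 0.0332, adjusted p = 0.111). With that component regressed out of each gene, a fit added after the data were seen, r with Bmal1 was −0.714 for Per3 (adjusted permutation p = 0.0774), −0.629 for Nr1d2 and −0.461 for Nr1d1, and that of Per2 became −0.808 (adjusted permutation p = 0.025). None of the 7 marker lists for leukocytes, epithelium, muscle, keratinocytes, adipocytes, endothelium and fibroblasts had an adjusted permutation p under 0.583 against Bmal1. The r furthest from 0 were 0.507 for epithelium and −0.465 for fibroblasts, and without vehicle tumors 3 and 5 these were 0.144 and −0.08, while keratinocytes were at 0.626 and skeletal muscle at 0.61.

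In vehicle tumor 5 the summed level of glucocorticoid-responsive genes other than Per1 was 1233 CPM, against 657 to 796 CPM in the other 9 tumors. Fkbp5, which encodes a co-chaperone of the glucocorticoid receptor, made up the largest share of the sum in vehicle tumor 5. It was at 557 CPM there and at 238 to 355 CPM elsewhere. Klf9 (159.5 against 76.6 to 108 CPM), Tsc22d3 (101 against 55.5 to 91.7 CPM), Errfi1 (319 against 144 to 251 CPM) and Zbtb16 (13.5 against 0.415 to 8.49 CPM) were also highest in that tumor. Sgk1, at 29.65 CPM there and 26.1 to 50.7 CPM elsewhere, and Dusp1, at 54.4 CPM there and 30.1 to 78.7 CPM elsewhere, were not. Per1, which is also on that list, was at 64.8 CPM in vehicle tumor 5, below the 68.1 CPM of vehicle tumor 2. The part of these genes, and of the hour of harvest, in the clock gene values was not tested. By treatment, 8 of 8 glucocorticoid-responsive genes and 9 of 9 immediate early genes had lower point estimates in liraglutide tumors (median log2 fold changes −0.22 and −0.33), with 0 past the adjusted threshold in either list, which share Dusp1. Of all 17464 tested genes 9184 had lower point estimates. Without vehicle tumor 5, 5 of the 8 glucocorticoid-responsive genes were lower, since the log2 fold changes of Fkbp5 (0.24), Klf9 (0.08) and Zbtb16 (1.41) turned, 9 of 9 immediate early genes were lower, and of all 17793 genes tested in that fit 8909 were lower. At an unadjusted p under 0.05 stood Tsc22d3 (log2 fold change −0.40, adjusted p = 0.482, edgeR) and Errfi1 (−0.47, adjusted p = 0.502, edgeR), 2 of 8 on the glucocorticoid list and 0 of 9 on the immediate early list, against 9.59% of all tested genes. Without vehicle tumor 5, 1 of 8 (Tsc22d3, log2 fold change −0.30) was under that value, beside 2409 of 17793 genes in that fit, and Errfi1 was at −0.31 (adjusted p = 0.413, edgeR).

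Further genes of the clock gave the same count. Of 20 listed, 18 could be tested and 0 passed the adjusted threshold, with 7 point estimates higher and 11 lower in liraglutide tumors and a median log2 fold change of −0.09. Npas2 and Hlf were too low to test. At an unadjusted p under 0.05 there were 3 of 18, against 9.59% of all tested genes. When vehicle tumor 5 was left out, 19 could be tested, 0 passed the adjusted threshold and 4 had an unadjusted p under 0.05, beside 2409 of all 17793 genes tested in that fit, with 7 higher and 12 lower. Ciart, which encodes a repressor of BMAL1 and CLOCK also named CHRONO, was at 9.46, 10.9, 9.77, 5.69 and 8.06 CPM in vehicle tumors and at 6.57, 5.39, 4.32, 5.48 and 4.32 CPM in liraglutide tumors. In 4 of 5 liraglutide tumors it lay below all vehicle tumors, with a log2 fold change of −0.75 (SE 0.21, adjusted p = 0.482, edgeR; exact permutation p = 0.0159). Nampt, which encodes the rate-limiting enzyme of NAD salvage, had a log2 fold change of −0.46 (SE 0.18, adjusted p = 0.499, edgeR). Bmal2, the paralog of Bmal1, had a log2 fold change of 0.47 (SE 0.20, adjusted p = 0.513, edgeR), at 6.45 ± 2.00 CPM in vehicle and 8.98 ± 0.61 CPM in liraglutide tumors (SD, n = 5 each). Leaving out vehicle tumor 5 gave 0.68 for Bmal2, −0.78 for Ciart and −0.55 for Nampt, each at an adjusted p of 0.303 (edgeR).

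Other genes of this list differed in their spread. Bhlhe41, which encodes the E-box repressor DEC2, ranged from 8.70 to 64.2 CPM in vehicle and from 7.28 to 33.1 CPM in liraglutide tumors (log2 fold change −0.89, SE 0.58, adjusted p = 0.620, edgeR). Tef, a D-box activator related to Dbp, was at 63.0 ± 13.03 CPM and 67.4 ± 15.9 CPM, and Nfil3, the repressor of D-boxes, at 14.7 ± 2.40 CPM and 14.1 ± 2.41 CPM (SD, n = 5 each). The kinase gene Csnk1d, whose product phosphorylates PER proteins, was at 154 ± 14.2 CPM and 154 ± 10.2 CPM (SD, n = 5 each).

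Genes whose levels followed Bmal1 most closely over the 10 tumors, among 16839 tested genes with a mean of at least 1 CPM, included R3hdm4 (r = 0.95), Gramd2b (0.939), Cyp2j6 (0.934) and Kif13a (0.93). The most opposed were Pisd (r = −0.963), 1810030O07Rik (−0.95), Rp2 (−0.948), Ergic3 (−0.948) and Pqbp1 (−0.938). None of the clock genes was among them. For Dbp the closest were B9d1 (r = 0.88), Dnase1 (0.869), Gm38214 (0.844), Dancr (0.829) and Gm43834 (0.826), and the most opposed Gm23119 (r = −0.946), Gm47856 (−0.837), Gm31305 (−0.817), Apom (−0.815) and Tbc1d30 (−0.81). These are descriptions over the same 10 tumors, chosen as extremes of many genes, with vehicle tumor 5 included, and carry no p.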

How the data were processed

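Raw counts per gene of 10 tumors, 5 liraglutide and 5 vehicle, were used. The deposited counts had been made by the authors from paired reads of rRNA-depleted libraries with Bowtie 1.0.1, TopHat 2.0.13 and featureCounts, after samples were left out at quality assessment. The library kit keeps strand, but the strand setting of the counting is not given in the sources used here. The study's methods give GRCm39 and the submitters' processing notes list mm10 and GRCh38, so positions of genes are those of GENCODE M39 on GRCm39, matched by Ensembl identifier without version (51731 of 55401 identifiers, with 98.31% of the counts, 35 of them in the same version).

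Groups came from the sample titles. In R 4.3.3, edgeR 4.0.16 kept 17464 genes (filterByExpr), scaled them by TMM, and compared treatments with the quasi-likelihood F test and treatment as the single factor, with Benjamini-Hochberg adjustment over all tested genes. Log2 CPM used a prior count of 2. Correlations used 100000 permutations, of which the smallest p is 1e-05, and exact permutation tests were two-sided. Alternatives were DESeq2 1.42.0, the tool of the study (also run with its independent filtering off), limma-voom (limma 3.58.1), 2 other scalings, 2 other filters, robust dispersion, a block on tumor number and leaving out each tumor. Scripts were tested on simulated data.

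The members and lists were chosen with earlier results of these data known. The genes named were the 10 members, 20 further clock genes, genes overlapping a member on the opposite strand, the 5 genes most like and most opposed to Bmal1 and to Dbp, and the glucocorticoid and immediate early lists. Values for Thra, Tmem165 and Sphk2 are given and the other overlapping genes are not. The marker Lor was not found by symbol. Each tumor is taken as 1 mouse, as the study's methods imply, and the p-values measure the spread between these tumors. A few items that these rules name are not reported here.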

Additional observations from a re-analysis of the deposited data

Results flagged for a closer look

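Bmal1 in vehicle tumors: vehicle tumor 5 was at 43.5 CPM and the next of its group at 24.3 CPM, a gap of 0.759 of the range of the group, above the limit of 0.71 for 5 samples. It was the single such gap among 22 groups of 5 tumors examined for the members and the arm difference, and chance alone gives about 1 in 20.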

How the results depend on the processing

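Counts of clock genes past an adjusted p of 0.05 were 0 under each alternative, although DESeq2 with its default filter gave an adjusted p for 2 of the 10 only. Over all tested genes the count was 0 in edgeR, 102 in DESeq2 and 40 in DESeq2 without independent filtering, which was added after the data were seen. At an unadjusted p under 0.05 the members numbered 1 with tumor number as a block (Per1, log2 fold change −0.29, adjusted p = 0.33, edgeR) and 0 to 1 when single tumors were left out (Per1 without vehicle tumor 4, −0.40, adjusted p = 0.267). Same-numbered tumors correlated at r of 0.354, 0.565, −0.0753, 0.0681 and 0.389 for numbers 1 to 5, against means of −0.138, −0.19, 0.0179, 0.0242 and −0.0549 with other numbers. For numbers 1, 2 and 5 the same-numbered tumors were more alike, and for 3 and 4 the values were near 0. The tumors came from different mice and were not treated as pairs, and what same-numbered tumors shared was not tested. With the block 0 members passed the adjusted threshold, and the unadjusted p (edgeR) was 0.0473 for Per1 and 0.144 for Nr1d1. Without the block these were 0.108 and 0.416. Leaving out single tumors turned the log2 fold change of Bmal1 (−0.197 to 0.178), Per3 (−0.194 to 0.0582), Cry2 (−0.00598 to 0.243) and Dbp (−0.234 to 0.0053). It also turned r with Bmal1 for Clock (−0.1 to 0.518), Per1 (−0.589 to 0.194), Per2 (−0.102 to 0.158) and Cry1 (−0.259 to 0.333). Of the alternative fold changes 177 kept their direction and side of the threshold, 8 kept their direction but had no adjusted p (DESeq2) and 5 turned. Relations of Bmal1 past the threshold numbered 1, and 0 with library size alone, 0 without the 2 farthest tumors and 0 to 2 without single tumors. The r of Per1 was −0.0694 with library size alone, −0.0226 with group means subtracted and −0.535 without the 2 farthest tumors, where Clock was at −0.113 and Cry1 at −0.255; that of Per2 was −0.808 with the first component regressed out. The arm difference of liraglutide minus vehicle, 0.0215, ranged from −0.162 to 0.159 without single tumors. Dbp and Cry1 rest on the fewest counts, 49 to 165 and 73 to 129 a tumor.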
